A study of Mus musculus with 4 samples.

Results

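The ligands of the tumour necrosis factor (TNF) superfamily that lymphoid cells make were followed in the mouse line Mnk3, whose cells are like group 3 innate lymphoid cells (ILC3). The 10 genes were chosen by name: Lta, Ltb, Tnf, Tnfsf11, Tnfsf4, Tnfsf8, Tnfsf9, Tnfsf10, Tnfsf14 and Fasl. They are 10 of the 41388 genes in the count tables, and 8 of the 10 had enough reads to be tested, among 13838 genes tested. RNA-seq of ribosome-depleted total RNA was done on 4 libraries of this line, 2 of untreated cells (control 1 and 2) and 2 of cells given IL-1b and IL-23, each at 10 ng/ml, for about 16 h (stimulated 1 and 2). The libraries numbered 1 carry rep1 in their titles and those numbered 2 carry no number. Whether the 2 libraries of each group are separate cultures is not stated; the p-values therefore reflect the spread between these libraries alone, and that spread may be technical. All values come from 1 cell line.

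TNF superfamily ligands are mostly membrane proteins that assemble into trimers and act on receptors of neighbouring cells, either on the surface or after being cut off by proteases. Lymphotoxin beta anchors lymphotoxin alpha in a membrane trimer that engages the lymphotoxin beta receptor on stromal cells. Lymphoid tissue inducer cells, the fetal relatives of adult ILC3, use this trimer together with RANK ligand to start lymph nodes and Peyer's patches. Other members, such as OX40 ligand, CD30 ligand and 4-1BB ligand, are costimulatory signals for T cells, and TRAIL and Fas ligand can start apoptosis.

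In stimulated cells, the 4 ligand genes that were most abundant at rest were lower, and 2 scarce ones were higher. Ltb, Tnfsf11, Tnf and Lta fell, Tnfsf4 and Tnfsf14 rose, Tnfsf9 and Tnfsf10 did not pass the test, and Tnfsf8 and Fasl had too few reads. Tnfsf4 and Tnfsf14 had at most 10 counts in either control and had enough reads to be tested only through the stimulated libraries. A gene this scarce at rest could be tested only if it was higher in stimulated cells, so the direction of these 2 calls was set by the filter. Of the 8 tested genes, 2 were higher and 4 lower at an adjusted p under 0.05 in edgeR's quasi-likelihood test, with Benjamini-Hochberg adjustment across all genes tested. Over all genes, 35.8% were called, 17.5% as higher and 18.3% as lower. The 2 groups did not overlap for 7 of the 8 tested members, which is read against 70.7% of all tested genes. The median change of the 8 was -0.46 on the log2 scale, beside -0.02 over all tested genes. Both counts are descriptions, since the genes were picked with earlier results of these data known. In bulk RNA, fewer cells that express a gene and less RNA of it per cell cannot be told apart.

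Levels below are CPM, the counts of a gene scaled to library size, after scaling by trimmed mean of M-values (TMM), and group values are mean ± SD with n = 2. A change is the log2 ratio of the stimulated to the control level ± SE, with a 95% interval where it is given. Comparisons between genes use CPM per kilobase of listed exon length.

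**Figure D1:**
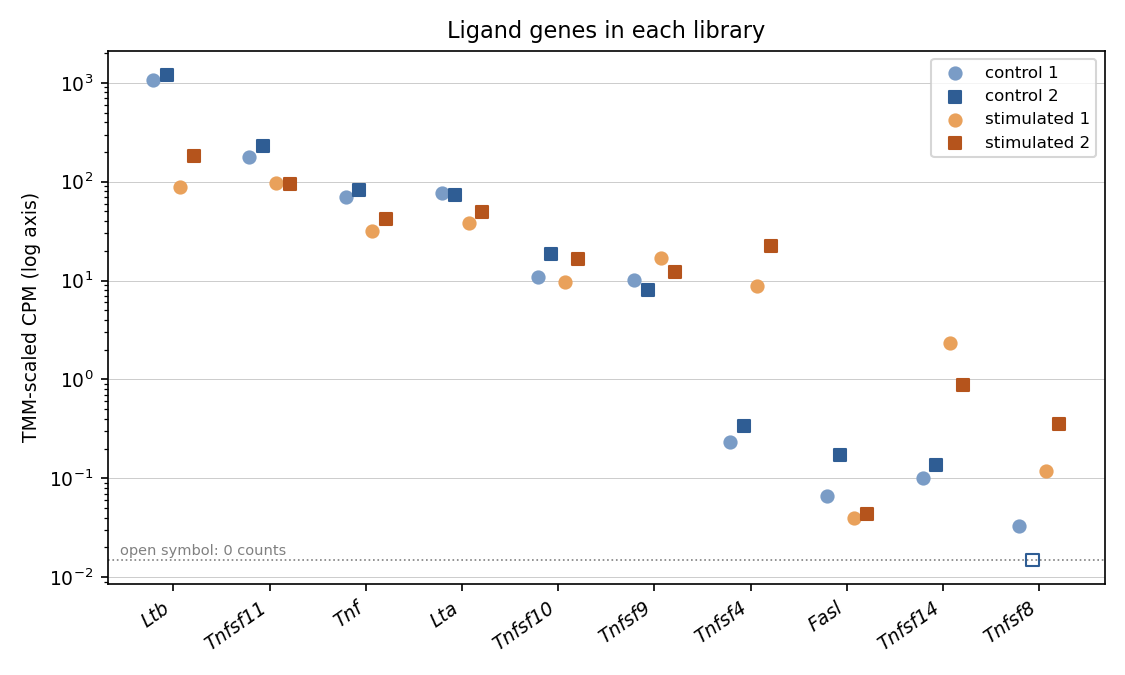
TMM-scaled CPM (log axis) of the 10 ligand genes in each of the 4 libraries, ordered by their control level. Blue symbols are controls, orange symbols are stimulated libraries, and the open symbol marks 0 counts; Ltb lies highest in both controls and Tnfsf4 moves from under 1 CPM to 8.83 and 22.2 CPM.

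Ltb, which encodes lymphotoxin beta, had the largest fall of the family. It was at 1075 and 1201 CPM in controls 1 and 2 and at 89.2 and 181 CPM in stimulated 1 and 2, from 32388, 35172, 2252 and 4131 counts. Both stimulated libraries lay far below both controls, although stimulated 2 held 2.03 times the level of stimulated 1. The group means were 1138 ± 89.6 and 135 ± 64.8 CPM (SD, n = 2), a change of -3.08 ± 0.36 with an interval of -3.97 to -2.18 (edgeR adjusted p = 0.00246), or 8.43-fold lower. Per kilobase, Ltb ranked 20 from the top among all 13838 tested genes in control cells and 760 in stimulated cells.

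Lta encodes lymphotoxin alpha, which is secreted as a trimer of its own or held at the membrane by lymphotoxin beta. It was at 77.0 and 72.6 CPM in controls 1 and 2 and at 38.5 and 49.6 CPM in stimulated 1 and 2. The groups did not overlap, and the fall was small beside that of Ltb. The change was -0.76 ± 0.17 with an interval of -1.16 to -0.37 (edgeR adjusted p = 0.0124), and without stimulated 1 it was -0.59 and no longer passed (adjusted p = 0.0700). Per kilobase, the ratio of Ltb to Lta was 12.7 and 15.1 in the controls, against 2.11 and 3.33 in the stimulated libraries. Its means were 13.9 ± 1.68 and 2.72 ± 0.861 (exact two-sided permutation p = 0.333, the smallest that 2 against 2 libraries can give).

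Tnf, the founding cytokine of the family and a driver of inflammation, was at 69.5 and 82.8 CPM in controls 1 and 2. Stimulated 1 and 2 had 31.6 and 42.0 CPM, below both controls. Tnf fell by 1.05 ± 0.19 on the log2 scale, with an interval of -1.49 to -0.61 (edgeR adjusted p = 0.00598), or 2.07-fold. Lta and Tnf stayed close to each other per kilobase, with ratios of Lta to Tnf of 1.31 and 1.04 in the controls, against 1.44 and 1.40 in the stimulated libraries.

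**Figure D2:**
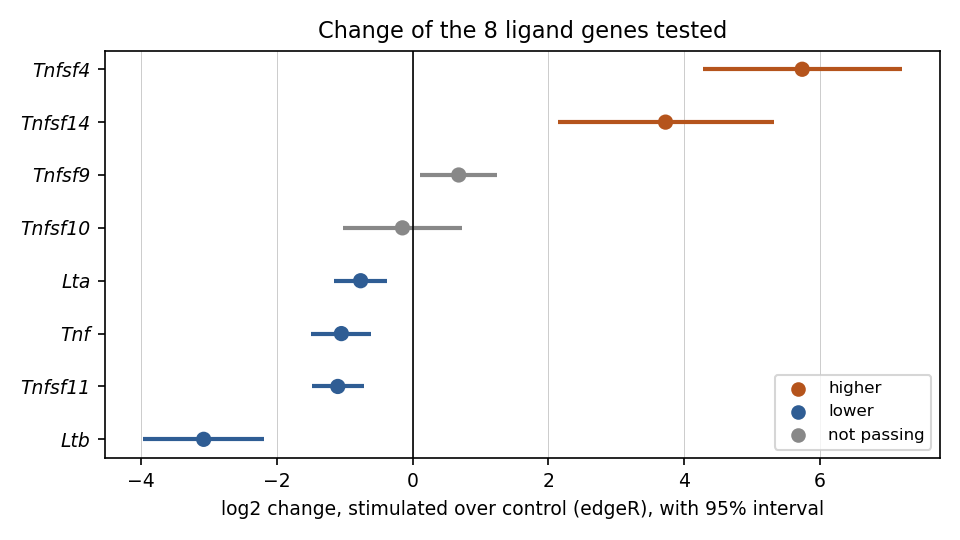
Log2 change of stimulated over control for the 8 tested ligand genes (points, edgeR fit) with 95% intervals (lines), coloured by call. Ltb lies lowest at -3.08 and Tnfsf4 highest at 5.74, while the interval of Tnfsf10 spans 0.

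These 3 genes sit side by side in the major histocompatibility complex on chromosome 17, by the coordinates of the count tables. Ltb spans 35194439 to 35196320 on the plus strand, Tnf 35199381 to 35202007 on the minus strand and Lta 35203165 to 35205351 on the minus strand. Ltb and Tnf are 3060 bases apart, and Tnf and Lta 1157 bases. Since the 3 neighbours fell together, the bases upstream of their RefSeq starts (build GRCm38.p6) are shown, 5′ to 3′ on the strand of each gene, up to the first listed exon. The windows are chr17:35194257-35194438 for Ltb, chr17:35202008-35202257 for Tnf and chr17:35205352-35205601 for Lta. Capitals mark matches to the motifs described after them.
Ltb: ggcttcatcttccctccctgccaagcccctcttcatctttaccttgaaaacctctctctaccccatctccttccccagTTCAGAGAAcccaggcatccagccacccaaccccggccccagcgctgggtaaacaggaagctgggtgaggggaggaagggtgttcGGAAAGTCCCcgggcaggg
Tnf: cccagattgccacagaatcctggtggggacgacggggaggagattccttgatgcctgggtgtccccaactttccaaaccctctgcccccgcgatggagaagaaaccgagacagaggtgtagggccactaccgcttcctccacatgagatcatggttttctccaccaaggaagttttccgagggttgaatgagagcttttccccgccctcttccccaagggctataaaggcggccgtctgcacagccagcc
Lta: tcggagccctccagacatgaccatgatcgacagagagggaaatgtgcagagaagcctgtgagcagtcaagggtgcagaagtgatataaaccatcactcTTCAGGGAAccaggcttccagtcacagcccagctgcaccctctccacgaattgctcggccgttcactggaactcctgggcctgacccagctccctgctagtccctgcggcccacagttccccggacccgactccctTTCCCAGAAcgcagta

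The 250 bases upstream of each RefSeq start were searched on both strands for 3 motifs: the NF-kB consensus, AP-1 (TGANTCA) and STAT (TTCNNNGAA). Windows were found for 8 of the 10 genes. Tnfsf4 and Tnfsf9 had none in the table. Ltb held an NF-kB match on the opposite strand, 87 to 78 bases before the start, and a STAT match 172 to 164 bases before it. Lta held 2 STAT matches, at 152 to 144 and 16 to 8 bases before the start, and Tnf held no match in this window. The windows of Tnfsf8, Tnfsf10 and Fasl held none of the 3 motifs either. Among all 32851 RefSeq windows of this length, 3.9% held the NF-kB consensus, 7.02% the STAT motif and 6.75% AP-1, and no 2 matches in these genes overlapped. A match is a description of the letters and was not tested for binding.

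The nearest tested genes on either side of the cluster were Lst1 and Nfkbil1. Lst1, a small leukocyte gene on the Ltb side, fell from 4.20 ± 1.06 to 0.838 ± 0.177 CPM (-2.32 ± 0.34, edgeR adjusted p = 0.00306). Nfkbil1, on the Lta side, had 49.7 ± 12.1 and 37.3 ± 8.97 CPM (-0.41 ± 0.24, edgeR adjusted p = 0.221) and did not pass. A window of 60 kb on each side of the Tnf start, chosen after the values were seen, held or touched 10 tested protein-coding genes, 6 lower, 1 higher and 3 not passing, beside 18.3% lower and 17.5% higher over all genes. Of the 6, 3 are the members around which the window was drawn. The 6 lower genes were Ltb, Tnf, Lta, Lst1, Aif1 (-1.28 ± 0.32) and Atp6v1g2 (-0.92 ± 0.22). The call of Aif1 ended without control 1 (0.0847) or stimulated 1 (0.0980), and that of Atp6v1g2 without control 1 (0.0868) or stimulated 2 (0.0873). The higher gene, Ddx39b (0.48 ± 0.15, edgeR adjusted p = 0.0465), lost its call without control 2 (0.221), stimulated 1 (0.172) or stimulated 2 (0.0878) and with total-count scaling (0.0845), upper quartile scaling (0.0665) or no robust estimation (0.0535). The microRNA gene Mir6973a lies inside the span of Ltb, on its strand, with 0 exon bases shared. It was counted 67 and 60 times in controls 1 and 2, against 5 and 12 times in stimulated 1 and 2 (-2.57 ± 0.47, edgeR adjusted p = 0.00656), and in total RNA such reads and those of unspliced Ltb cannot be told apart. Mir6974, inside the span of Lta, had at most 4 counts in any library and was not tested.

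**Figure D3:**
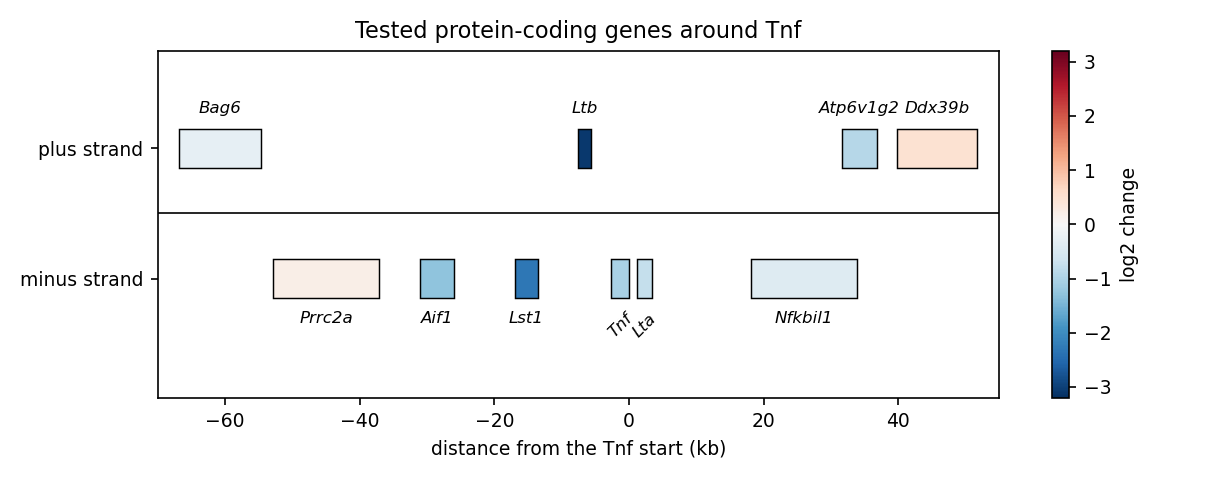
Tested protein-coding genes around Tnf, drawn to scale by distance from the Tnf start in kb, with the plus strand above the line and the minus strand below it. Colour is the log2 change of stimulated over control; Ltb is the darkest blue at -3.08, and Bag6, Prrc2a and Nfkbil1 did not pass the test.

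Tnfsf11 encodes RANK ligand, known for osteoclast formation and for lymph node development. Its levels were 180 and 229 CPM in controls 1 and 2 and 96.6 and 94.1 CPM in stimulated 1 and 2. The stimulated libraries lay close together and below both controls. Tnfsf11 fell from 205 ± 35.1 to 95.4 ± 1.79 CPM, a change of -1.10 ± 0.16 with an interval of -1.49 to -0.72 (edgeR adjusted p = 0.00298). Per kilobase it was the second ligand after Ltb in both controls, at 80.4 and 103 CPM per kb, ahead of Lta at 55.7 and 52.5 CPM per kb. It lies on chromosome 14 from 78277445 to 78308043 on the minus strand. The 250 bases upstream of its RefSeq start, at chr14:78308044-78308293 (GRCm38.p6), held none of the 3 motifs and are printed for comparison with the other lowered genes.
Tnfsf11: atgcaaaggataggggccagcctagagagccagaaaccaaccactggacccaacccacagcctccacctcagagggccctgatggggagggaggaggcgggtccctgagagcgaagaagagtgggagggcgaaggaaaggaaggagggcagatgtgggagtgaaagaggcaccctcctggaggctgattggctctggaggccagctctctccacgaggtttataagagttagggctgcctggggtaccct

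Of the costimulatory ligands, Tnfsf4, which encodes OX40 ligand, went from near absence to a clear signal. It had 7 and 10 counts in controls 1 and 2 (0.232 and 0.342 CPM) and 223 and 508 counts in stimulated 1 and 2 (8.83 and 22.2 CPM). The groups were far apart, and stimulated 2 was 2.52 times stimulated 1. The mean went from 0.287 ± 0.0773 to 15.5 ± 9.48 CPM, a change of 5.74 ± 0.60 with an interval of 4.27 to 7.20 (edgeR adjusted p = 0.00151), and without stimulated 2 it was 4.95. Per kilobase, Tnfsf4 moved from the 4.46 percentile of tested genes to the 52.7 percentile. It spans 161395409 to 161418410 on the plus strand of chromosome 1, and its nearest tested gene on each side did not pass.

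Tnfsf14 encodes LIGHT, which binds the herpesvirus entry mediator HVEM and the lymphotoxin beta receptor. It had 3 and 4 counts in controls 1 and 2 and 59 and 20 counts in stimulated 1 and 2, or 0.0995, 0.137, 2.34 and 0.876 CPM. Here stimulated 1 was the higher library, 2.67 times stimulated 2, and both lay above both controls. Tnfsf14 rose by 3.72 ± 0.67 with an interval of 2.13 to 5.31 (edgeR adjusted p = 0.00646), and by 2.85 without stimulated 1. Its level stayed low even so, at the 20.4 percentile of tested genes per kilobase in stimulated cells. The window at chr17:57194190-57194431 (GRCm38.p6, minus strand), upstream of its first listed exon, is shown because it held an AP-1 match. The match lies 160 to 154 bases before the RefSeq start, and 6.75% of all RefSeq windows held AP-1.
Tnfsf14: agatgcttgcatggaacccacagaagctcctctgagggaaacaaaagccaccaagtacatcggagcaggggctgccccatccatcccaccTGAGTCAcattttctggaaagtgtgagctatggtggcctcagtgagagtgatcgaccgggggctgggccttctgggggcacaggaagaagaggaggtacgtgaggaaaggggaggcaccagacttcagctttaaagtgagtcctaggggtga

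Tnfsf9, the gene of 4-1BB ligand, was at 10.2 and 8.06 CPM in controls 1 and 2 and at 17.0 and 12.3 CPM in stimulated 1 and 2. Both stimulated libraries lay above both controls, by a margin close to the gap within groups. The change was 0.68 ± 0.24 with an interval of 0.11 to 1.25 and did not pass (edgeR adjusted p = 0.0645). It passed in DESeq2 (0.0475), without stimulated 2 (0.0381) and with no filter on low counts (0.0158). The noncoding gene Gm11110 overlaps the span of Tnfsf9 on the opposite strand with 0 exon bases shared, and was counted 335 and 261 times in controls 1 and 2, against 186 and 122 times in stimulated 1 and 2.

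Tnfsf8, the gene of CD30 ligand, was hardly detected, with 1 and 0 counts in controls 1 and 2 and 3 and 8 counts in stimulated 1 and 2. It fell below the filter on low counts. Scaled to library size, the ratio of stimulated to control counts was 13.6 with a 95% counting interval of 1.97 to 585. That interval covers counting error only, so the size of any difference is poorly known at this depth.

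The apoptosis ligands showed no change that could be called. Tnfsf10, which encodes TRAIL, was at 10.8 and 18.4 CPM in controls 1 and 2 and at 9.70 and 16.6 CPM in stimulated 1 and 2, so that the groups overlapped. In both groups library 2 was 1.71 times library 1. The change was -0.15 ± 0.36 with an interval of -1.02 to 0.72 (edgeR adjusted p = 0.776), and it turned positive without control 2 (0.29) or stimulated 1 (0.19). Fasl, the gene of Fas ligand, had 2 and 5 counts in the controls and 1 count in each stimulated library, too few to test. Scaled to library size, the stimulated counts were 0.353 times the control counts (counting interval 0.0358 to 1.85).

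The makeup of the ligand transcripts changed as the share of Ltb dropped, although Ltb stayed first in every library. Summed per kilobase, the 10 genes gave 898 and 1008 CPM per kb in controls 1 and 2 and 171 and 249 CPM per kb in stimulated 1 and 2. Without Ltb, the other 9 genes gave 189 and 216 CPM per kb in the controls, against 112 and 129 in the stimulated libraries. Ltb made up 78.9% and 78.6% of the sum in the controls, against 34.4% and 48.0% in the stimulated libraries. The 2 stimulated libraries thus differed from each other by more than the controls did, but neither came near them. Lta went from 5.70% ± 0.708 to 15.4% ± 1.33 of the sum (SD, n = 2), Tnf from 4.87% ± 0.204 to 10.8% ± 0.691 and Tnfsf11 from 9.56% ± 0.862 to 21.1% ± 5.91, although the levels of all 3 fell. Tnfsf9 went from 0.789% ± 0.197 to 6.06% ± 2.88 and Tnfsf4 from 0.0162% ± 0.00307 to 3.83% ± 1.45. In stimulated 1 the order of levels per kb was Ltb (58.8), Tnfsf11 (43.2), Lta (27.9), Tnf (19.3), Tnfsf9 (13.8) and Tnfsf4 (4.79). In stimulated 2 it was Ltb (119), Tnfsf11 (42.1), Lta (35.8), Tnf (25.6), Tnfsf4 (12.1) and Tnfsf9 (10.0), so that the places of Tnfsf4 and Tnfsf9 did not hold between the libraries. For shares and sums, 2 against 2 libraries cannot give an exact permutation p below 0.333.

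**Figure D4:**
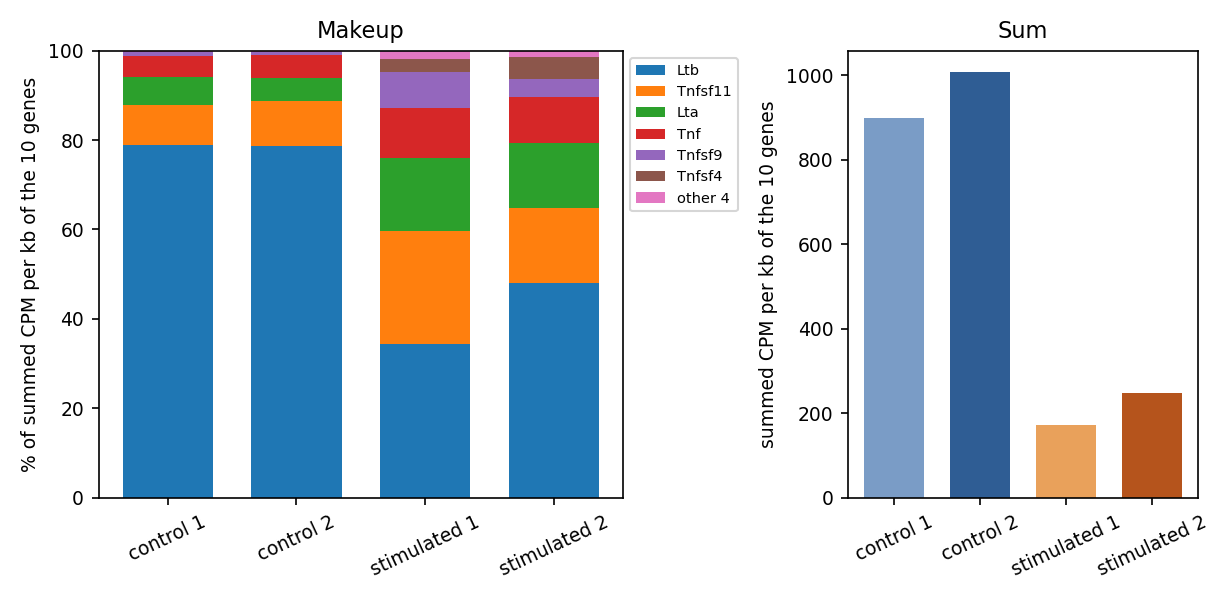
Left, share of each ligand gene in the summed CPM per kb of the 10 genes, in percent, for each library, with the 4 smallest pooled as other; right, that sum in CPM per kb. Ltb takes 78.6% to 78.9% in the controls and 34.4% to 48.0% in the stimulated libraries, and the sum drops from 898 and 1008 to 171 and 249 CPM per kb.

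The family holds 8 further ligand genes, of which 4 could be tested. Of these, 2 were higher and 2 lower, beside 17.5% higher and 18.3% lower over all genes tested. Tnfsf15 and Cd70 needed the stimulated libraries to pass the filter on low counts, and Tnfsf13 needed the controls, so these counts depend in part on that filter. Tnfsf15, whose product TL1A acts on death receptor DR3, rose from 7 and 11 counts to 110 and 119, a change of 3.96 ± 0.37 (edgeR adjusted p = 0.000648). It lies 86.2 kb from Tnfsf8 on chromosome 4. Cd70, the ligand of CD27, lies between Tnfsf9 and Tnfsf14 on chromosome 17 and went from 2 to 35 counts (edgeR adjusted p = 0.0153). Scaled to library size, its level was 21.6 times as high (counting interval 5.55 to 185). Its fitted change depended on the control left out, 7.26 without control 1 and 3.38 without control 2. Tnfsf12, which encodes TWEAK, changed by -1.23 ± 0.26 (edgeR adjusted p = 0.0121; 0.0520 without stimulated 1), and Tnfsf13, which encodes the B cell factor APRIL, by -2.43 ± 0.52 (edgeR adjusted p = 0.0117; 0.0581 without control 2 and 0.0615 without stimulated 1). Tnfsf12 and Tnfsf13 lie only 465 bases apart on the same strand, and reads of a joint transcript could be split between them. The other 4, Tnfsf13b, Tnfsf18, Cd40lg and Eda, had at most 4 counts in any library.

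In the 4 pairs of neighbouring family genes with both called, Ltb and Tnf, Tnf and Lta, Tnfsf13 and Tnfsf12, and Cd70 and Tnfsf14, both genes went the same way. Cd70 and Tnfsf14 both needed the stimulated libraries to pass the filter on low counts, so their shared direction was set by it. Tnfsf13 needed the controls, and the pairs of Ltb and Tnf and of Tnf and Lta share Tnf. How often neighbouring genes went the same way over all genes was not counted. Tnfsf4, Tnfsf18 and Fasl lie in a row on chromosome 1, and only the first had counts enough to be tested. Of the 17 distinct tested genes nearest to the 10 members, 14 are not members, and of these 4 were higher, 2 lower and 8 did not pass, beside 35.8% called over all genes.

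Receptors of the 10 ligands were measured in the same cells. Of 13 receptor genes, 12 were tested, 5 were higher, 1 was lower and 6 did not pass, beside 17.5% higher and 18.3% lower over all genes tested. Their median change was 0.32, beside -0.02 over all. Of the 5 higher genes, Tnfrsf11b, Tnfrsf8 and Fas had at most 7 counts in either control and needed the stimulated libraries to pass the filter on low counts. Tnfrsf23, which was not called, needed the controls to pass it. The counts and the median therefore depend in part on that filter. Ltbr, the receptor of the lymphotoxin trimer and of LIGHT, was low in both groups, at 6.02 ± 0.495 and 5.78 ± 1.62 CPM (-0.06 ± 0.27, interval -0.71 to 0.59, edgeR adjusted p = 0.894). Tnfrsf1a, the death domain receptor of TNF and lymphotoxin alpha, had 53.2 ± 4.17 and 50.04 ± 14.6 CPM (-0.09 ± 0.21, interval -0.60 to 0.42, edgeR adjusted p = 0.782). Tnfrsf1b, the other TNF receptor, rose from 165 ± 11.6 to 428 ± 46.0 CPM (1.38 ± 0.15, edgeR adjusted p = 0.00115). Single levels were 157 and 173 CPM at rest and 461 and 396 CPM after stimulation, the opposite direction to Tnf and Lta.

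For RANK ligand, the receptor gene fell with the ligand gene. Tnfrsf11a, which encodes RANK, went from 96.8 and 113 CPM to 28.2 and 37.1 CPM (-1.68 ± 0.18, edgeR adjusted p = 0.00102). Tnfrsf11b, which encodes osteoprotegerin, the soluble decoy of RANK ligand, went from 1 to 43 counts (edgeR adjusted p = 0.00642). Scaled to library size, its level was 53.1 times as high (counting interval 9.03 to 2145). The fit gave 4.51 when control 1 was left out and 7.53 when control 2 was.

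Receptors of the costimulatory ligands were higher in part. Tnfrsf9, which encodes 4-1BB, rose from 89.9 and 92.8 CPM to 1119 and 834 CPM (3.42 ± 0.20, edgeR adjusted p = 0.000229), while its ligand gene Tnfsf9 did not pass. Tnfrsf8, which encodes CD30, rose from 7 and 6 counts to 64 and 25 (3.03 ± 0.55, edgeR adjusted p = 0.00657), and by 2.30 without stimulated 1. Tnfrsf4, which encodes OX40, had 0.841 ± 0.0780 and 1.33 ± 0.0822 CPM (0.66 ± 0.34, interval -0.14 to 1.46, edgeR adjusted p = 0.174) and stayed low while the OX40 ligand gene rose. Tnfrsf14, which encodes HVEM, had 7.54 ± 0.0120 and 7.41 ± 1.003 CPM (-0.03 ± 0.22, interval -0.55 to 0.50).

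Among receptors of the apoptosis ligands, Fas went from 1 control count to 518 stimulated counts (edgeR adjusted p = 0.000416). Scaled to library size, its level was 640 times as high (counting interval 114 to 25310). The fit gave 8.09 when control 1 was left out and 11.11 when control 2 was. Fasl counts in the same libraries were 7 in the controls and 2 in the stimulated cells. The mouse TRAIL receptor gene Tnfrsf10b had 8 and 4 counts and was not tested. The TRAIL decoy receptor genes Tnfrsf22 (-0.75 ± 0.50) and Tnfrsf23 (-1.45 ± 0.73) did not pass. Without stimulated 1 the changes were -1.65 and -3.08, and without stimulated 2 they were -0.20 and -0.73, none of them passing.

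**Figure D5:**
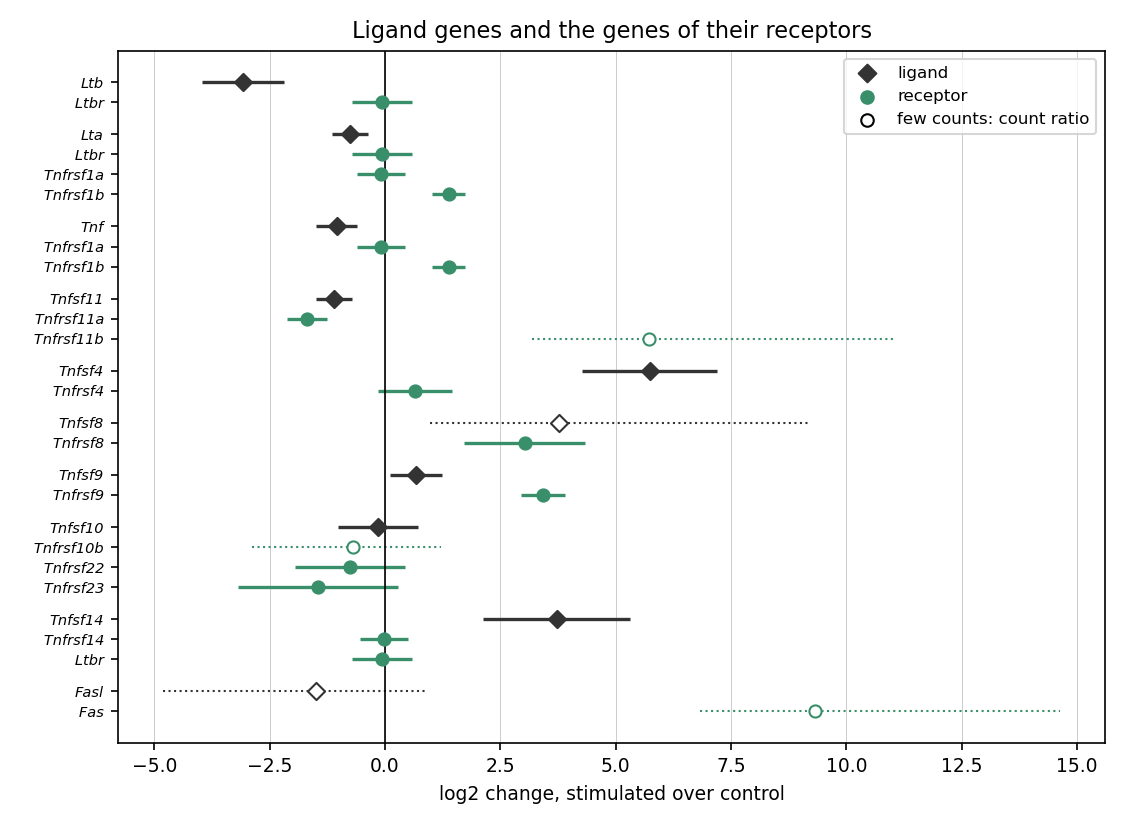
Log2 change of stimulated over control for each ligand gene (diamonds) and the genes of its receptors (green circles), with 95% intervals of the edgeR fit. Open symbols with dotted lines are genes with few counts, drawn as the count ratio and its counting interval; Fas and Tnfrsf11b lie far to the right, while Ltbr, Tnfrsf1a and Tnfrsf14 lie near 0.

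Signalling genes below these receptors were called in both directions. Of 28 adaptor, kinase and NF-kB genes, all tested, 4 were higher, 3 lower and 21 did not pass, beside 17.5% higher and 18.3% lower over all genes tested. Their median change was -0.11. With total-count scaling 2 were higher and 5 lower, and with upper quartile scaling 3 and 5. Nfkbia, the inhibitor that NF-kB itself induces, rose by 1.41 ± 0.16 (edgeR adjusted p = 0.00120), and the adaptor Traf1 by 1.23 ± 0.17 (edgeR adjusted p = 0.00232). Map3k14, the kinase NIK of the noncanonical pathway below the lymphotoxin beta receptor, changed by -0.68 ± 0.16 (edgeR adjusted p = 0.0184; 0.0694 without control 1 and 0.103 without stimulated 2). The abundant subunit genes Nfkb2 (-0.43 ± 0.15, edgeR adjusted p = 0.0613) and Nfkb1 (-0.24 ± 0.14, edgeR adjusted p = 0.236) did not pass, and Nfkb2 passed with total-count scaling (0.0361), upper quartile scaling (0.0408) and in DESeq2 (0.0226). The other calls, Ripk1, Chuk, Fadd and Cyld, each ended in 3 of the 4 fits with 1 library left out. The list had 3 higher and 1 lower genes without control 1, 2 and 1 without stimulated 1, and 2 and 0 without stimulated 2.

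The genes that release ligands from the membrane went in both directions. Of 8 genes of shedding, 7 were tested, 1 was higher, 3 were lower and 3 did not pass, beside 35.8% of all tested genes called. Adam17, the TNF-converting protease, fell from 430 ± 14.7 to 253 ± 4.34 CPM (-0.76 ± 0.14, edgeR adjusted p = 0.00633). Its partner Rhbdf2, which carries the protease to the surface, rose from 36.4 ± 6.20 to 136 ± 45.3 CPM (1.90 ± 0.26, edgeR adjusted p = 0.00318). The intramembrane proteases Sppl2a, known to cleave TNF stubs, and Sppl2b changed by -1.03 ± 0.18 and -1.47 ± 0.20 (edgeR adjusted p = 0.00535 and 0.00230). Frmd8 (-0.25 ± 0.16) and Adam10 (-0.61 ± 0.33) did not pass, and Adam10 passed with no filter on low counts (0.00244).

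Depth and cell identity may bear on all of these values. Summed counts ranged from 23047723 to 29078765 per library. The ILC3 genes Il23r (223 ± 5.54 CPM in controls) and Il1r1 (213 ± 3.18 CPM) were present. All 14 ILC3 and inducer cell markers were tested, 2 higher and 8 lower, with a median change of -1.08 beside -0.02 over all tested genes. Over all tested genes 17.5% were higher and 18.3% lower, shares that also stand beside the marker counts below. Of other cell types, the 7 T cell markers summed to 52.7 to 66.9 CPM in controls and 20.1 to 21.5 CPM in stimulated cells. Of the 6 tested, 2 were lower (Trbc2 and Trac). Cd3e was under 1 CPM in both groups, while Cd3d had 13.9 ± 5.81 and 12.8 ± 2.44 CPM and did not pass (edgeR adjusted p = 0.804). NK and ILC1 markers were 211 to 235 and 74.9 to 99.0 CPM with 2 of 5 lower. The 7 myeloid markers were 16.1 to 18.5 and 49.1 to 53.4 CPM, and Lyz2 and Cd14 were at 0 counts in every library. Of the 5 myeloid markers tested, 2 were higher (Cebpb and Adgre1). The call of Adgre1 ended without control 1 (0.171) or control 2 (0.212). B cell, ILC2, stromal and epithelial markers summed to at most 6.52 CPM in any library, with Cd79b and Krt8 lower and Pdpn at 0 counts in every library. The part of these shifts in the ligand results was not tested.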

How the data were processed

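RNA-seq libraries of ribosome-depleted total RNA were analysed from 2 control and 2 stimulated samples. The submitters' processing notes name STAR, Subread and featureCounts, while versions, genome build, annotation and strand setting were not given in the sources used here. The deposited values are a whole-number count per gene, which the authors left unnormalised, and the deposited CPM and RPKM, which match the counts and listed exon lengths and were not used further. Gene symbols came from GENCODE M21 (40340 of 41388 identifiers found), and coordinates are those of the count tables. All 10 members matched. Stimulated and control libraries were compared on all counts in edgeR 4.0.16 (R 4.3.3), with its quasi-likelihood test, with filterByExpr, TMM scaling and robust estimation, and the SE is the absolute log2 change over the square root of F. On simulated data for this comparison over 13838 genes, 60% of 100 genes changed by 1 on the log2 scale and 87% of 100 changed by 2 were called. Of 13638 unchanged genes, 46 were called (0.337%), a larger part of all calls there than an adjusted p of 0.05 allows. Far fewer genes changed in the simulation than the 4950 called in these data, so the share of false calls here cannot be read from it. Count ratios of genes with few reads are pooled counts per TMM-scaled library size. They carry exact (Clopper-Pearson) 95% intervals, which cover counting error only. Upstream sequences are RefSeq's. All 10 members and all receptor and other ligand genes tested were named, as were genes overlapping a member and the nearest tested genes of the Tnf cluster, with the 3 called genes of smallest p and the 2 most abundant uncalled genes of the signalling and shedding lists. Genes named outside this rule are the others around Tnf, cell markers, the other 4 signalling calls, which are named only, and Adam17. A marker gene and a further motif are not reported here. Members and lists were chosen with earlier results of these data known. Alternatives were 3 scalings, 2 filters, DESeq2 1.42.0, limma-voom (limma 3.58.1), no robust estimation, a replicate block, an adjusted p of 0.01 and each library left out.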

Additional observations from a re-analysis of the deposited data

How the results depend on the processing

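The 6 called members kept their direction in every alternative that tested them, 83 values in all, of which 2 no longer passed. These were Lta at an adjusted p of 0.01 and Lta without stimulated 1. For Tnfsf4 and Tnfsf14 the direction of the main call was set by the filter on low counts. The adjusted p of 0.01 reuses the main fit, so its directions could not differ. The 83 values are therefore not all separate checks of direction. The number of higher members was 4 with no filter on low counts, where Tnfsf8 and Tnfsf9 passed, and 1 with the filter of 1 CPM in 2 libraries, where Tnfsf14 was not tested. The 4 pathway lists held 51 tested genes, and their counts are read against 17.5% higher and 18.3% lower over all genes tested. Over the 4 pathway lists together, 12 genes were higher and 9 lower, 4 were lower at an adjusted p of 0.01, and 5 to 7 were lower with 1 library left out. With a replicate block for the kind of title 16 were lower, signalling genes had 7 higher and 8 lower, and 5 shedding genes were lower. Under that block Tnfsf9 (0.000128), Nfkb2 (0.00340), Adam10 (5.69e-07) and Frmd8 (0.0485) passed. The titles state no such pairing, and with 4 libraries that fit leaves a gene little spread of its own. With 1 library left out, uncalled genes changed sign: Tnfsf10 ranged from -0.56 to 0.29, Tnfrsf1a from -0.42 to 0.21, Ltbr from -0.38 to 0.23 and Tnfrsf14 from -0.17 to 0.13. Counts not divided by length gave Ltb 75.0% of the control sum. A group left with 1 library is assumed to vary like the other.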
